A study of Mus musculus with 16 samples.

Results

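The genes described here are 39 markers of T cells and intraepithelial lymphocytes, the lymphocytes that sit between the epithelial cells of the gut. They were taken by symbol from the count table, and 39 of 39 were found among its 55359 gene identifiers. They cover the CD3 complex and general T cell surface proteins, the T cell receptor chains, the kinases that act just below the receptor, CD4 and helper or regulatory genes, CD8, homing and retention, and cytotoxic genes. The levels came from bulk tissue, in which fewer cells of a type and less RNA per cell cannot be told apart.

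T cells recognise antigen through a receptor of paired alpha and beta or gamma and delta chains, which signals through the CD3 proteins and the kinases Lck and Zap70. The small intestinal epithelium of the mouse holds many CD8+ T cells with the integrin CD103 (Itgae) and stored granzymes, both with alpha beta and with gamma delta receptors. CD4+ T cells, by contrast, lie mostly in the lamina propria and the lymphoid follicles beneath the epithelium.

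The mutant mice were Neurog3f/f; Villin-CreERT2 males, in which CreERT2, a recombinase switched on by tamoxifen, is expressed from the epithelial Villin promoter and deletes floxed alleles of Neurog3, the factor that endocrine cells of the gut need to form. The control mice were Neurog3f/f males, which carry the same floxed alleles without the recombinase. Both genotypes were adult C57BL/6N mice on a high fat diet, and tissue was taken 5 weeks after tamoxifen. The duodenum and the ileum of mutant M136, M167, M168 and M177 and of control C133, C134, C151 and C154 gave 16 libraries, and values of single libraries are given in this order of mice.

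Neurog3 had 1 count over the 4 mutant ileum libraries, against 201 over the 4 control ileum libraries. In the duodenum it had 1 count in mutant libraries and 549 in control libraries. Markers of the ileum summed to 760 to 2260 CPM in mutant ileum libraries and 1400 to 2120 CPM in control ileum libraries. They summed to 25.8 to 71.5 CPM over the 8 duodenum libraries. Libraries held 40.9 to 67.2 M counts, and levels are in CPM, which are counts divided by the scaled library size in M. Some libraries stood apart. Cr2, the complement receptor of follicular B cells, reached 27.4 and 27.2 CPM in the ileum and 6.88 and 13.2 CPM in the duodenum of controls C134 and C154, and no library of the other mice exceeded 1.77 CPM. Exocrine pancreas genes summed to 196000 and 190000 CPM in the duodenum of mutant mice M167 and M177, while the next highest library had 43200 CPM. Counts are therefore also given without these pairs of mice.

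In the ileum, 36 of the 39 genes were lower in mutant mice and 0 were higher (edgeR's quasi-likelihood test, Benjamini-Hochberg adjusted p under 0.05). The background was that 14.6% of all tested genes were lower in the mutant ileum. The 3 that missed the threshold were Foxp3, Klrk1 and Eomes. The median log2 fold change of the 39 was -2.04, against -0.03 for all tested genes, and 39 of 39 were below 0. In 35 of the 39, all mutant ileum libraries lay below all control ileum libraries, against 16% of all tested genes. At an unadjusted p under 0.05 the counts were 37 lower and 0 higher, against 8057 of 18310 tested genes in either direction. DESeq2 called 36 lower and 0 higher, against 3233 lower of all 32118 genes in that fit. The sum over the 39 genes was 40.7, 39.8, 70.9 and 41.4 CPM in the mutant ileum, against 162, 232, 146 and 201 CPM in the control ileum. Without control mice C134 and C154, 32 genes remained lower, against 1677 of 19230 tested genes. Without mutant mice M167 and M177, 31 did, against 2103 of 19216 tested genes.

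In the duodenum, 12 of 38 tested genes were lower in mutant mice and 0 were higher, against 5.11% of all tested genes that were lower. The 12 were Cd3d, Cd2, Thy1, Trac, Trbc2, Lck, Lat, Cd4, Cd8b1, Itgae, Xcl1 and Tbx21. Eomes was too low to be tested there. The median log2 fold change of the 38 was -0.86, against 0.02 for all tested genes, and 37 of 38 were below 0. All mutant duodenum libraries lay below all control duodenum libraries in 13 of the 39 genes, against 10.8% of all tested genes. The sum over the 39 genes was 265, 203, 325 and 148 CPM in the mutant duodenum, against 298, 437, 543 and 372 CPM in the control duodenum, and the groups overlapped. DESeq2 called 20 of 39 genes lower and 0 higher, against 1596 lower of all 31628 genes in that fit. At an unadjusted p under 0.05 edgeR's test had 25 lower and 0 higher, against 5143 of 17611 tested genes in either direction.

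The count of duodenal calls changed with the mice left out, as did that of all tested genes. With 1 mouse left out, the median log2 fold change of the listed genes was -1.02 to -0.70. The count of lower genes was 7 without C133, 2 without C134, 3 without C151, 5 without C154, 4 without M167 and 4 without M177. Over all tested genes, 900 were lower with all mice, and 410, 413, 352, 476, 547 and 442 were in these 6 fits, in the same order. Without M168, the mutant mouse with the highest level in 30 of the 39 genes, the count was 18, against 1077 of 17909 tested genes. Without M136 it was 9, against 1114 of 17871 tested genes. Without C134 and C154 it was 0, against 163 of 18252 tested genes. In that fit 19 of the listed genes were lower at an unadjusted p under 0.05, against 3166 of the 18252 in either direction. The median log2 fold change of the listed genes was -0.84. Without M167 and M177 the count was 0, against 305 of 18342 tested genes. In that fit 16 of the listed genes were lower at an unadjusted p under 0.05, against 3454 of the 18342 in either direction. Their median there was -0.57 over all listed genes tested. Trac and Cd4 were the genes called in each fit that left out a single mouse. In the mutant duodenum M177 held the lowest value of 30 of the 39 genes. Exocrine pancreas genes summed to 8790, 196000, 43200 and 190000 CPM in the mutant duodenum, against 31400, 10.4, 20000 and 5.61 CPM in the control duodenum. The part of pancreas transcripts in the duodenal result was not tested.

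**Figure D1:**
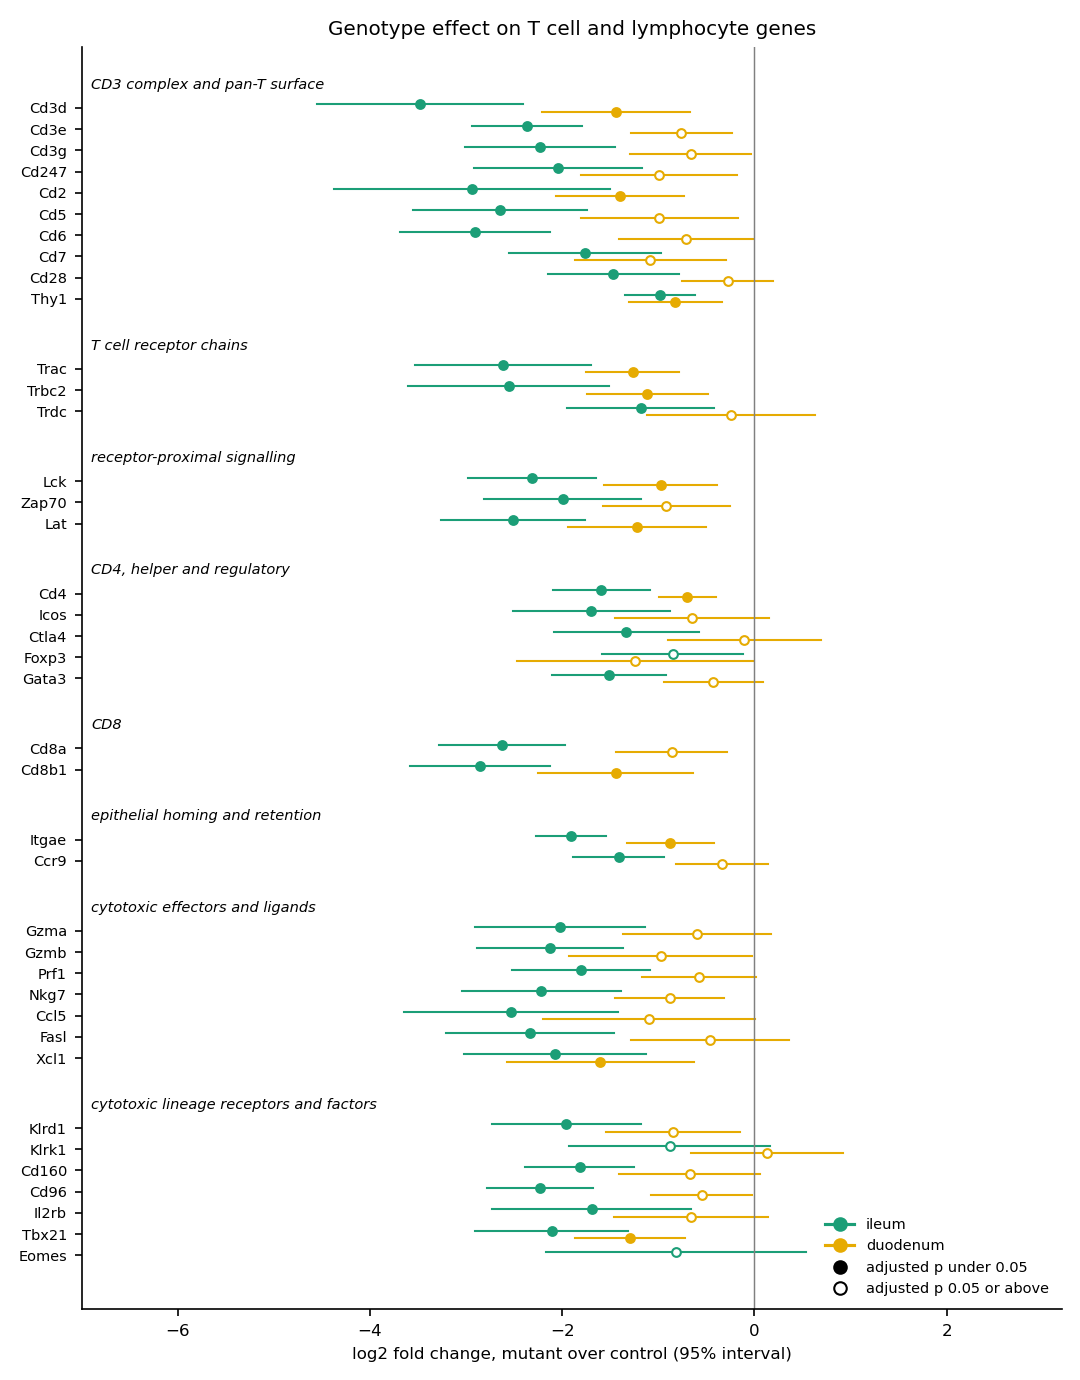
Log2 fold change of each gene, mutant over control, in the ileum and the duodenum, with 95% intervals from edgeR. Filled points have an adjusted p under 0.05. In the ileum 36 of 39 points are filled and all lie left of 0, and in the duodenum 12 of 38 are filled and 37 lie left of 0.

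The CD3 complex carries the signal of the T cell receptor into the cell. Its 4 genes were lower in the mutant ileum by 4.12 to 11.1 times, and Cd3d was lower in the duodenum too. Cd3d, the delta subunit, had 0.214, 0.084, 0.314 and 0.125 CPM in the mutant ileum, against 1.11, 2.76, 1.31 and 3.15 CPM in the control ileum. These levels came from 44 counts over the mutant libraries and 442 over the control libraries. The lowest control value was that of C133, and the highest mutant value that of M168 (log2 fold change -3.48 ± 0.49 (SE), adjusted p = 0.000458). In the duodenum Cd3d had 1.79, 0.991, 2 and 0.554 CPM in the mutant duodenum, against 2.74, 4.18, 4.37 and 3.48 CPM in the control duodenum (log2 fold change -1.44 ± 0.35 (SE), adjusted p = 0.0333). Its groups did not overlap in either tissue. Cd3e, the epsilon subunit, had 1.53, 2.04, 2.93 and 1.45 CPM in the mutant ileum, against 9.5, 13.2, 7.46 and 11.7 CPM in the control ileum (log2 fold change -2.37 ± 0.26 (SE), adjusted p = 0.000132). Its groups in the duodenum overlapped in 1 mutant library, with 11.8, 8.26, 14.4 and 6.46 CPM in the mutant duodenum, against 13.7, 18.9, 20.7 and 16.8 CPM in the control duodenum, and the difference missed the threshold (log2 fold change -0.76 ± 0.24 (SE), adjusted p = 0.0707). Cd3g, the gamma subunit, had 0.657, 0.644, 1.85 and 0.679 CPM in the mutant ileum, against 4.18, 5.78, 3.74 and 4.6 CPM in the control ileum (log2 fold change -2.23 ± 0.35 (SE), adjusted p = 0.000958). Mouse M168 stood above the other mutant mice. In the duodenum Cd3g had 6.47, 5.24, 9 and 3.44 CPM in the mutant duodenum, against 6.81, 10.7, 12.5 and 8.69 CPM in the control duodenum (log2 fold change -0.66 ± 0.28 (SE), adjusted p = 0.153), and the groups overlapped. Cd247, the zeta chain of the complex, had 0.608, 0.518, 0.401 and 0.232 CPM in the mutant ileum, against 1.49, 2.38, 0.912 and 2.67 CPM in the control ileum (log2 fold change -2.04 ± 0.40 (SE), adjusted p = 0.00291). In the duodenum Cd247 had 0.836, 0.732, 1.77 and 0.637 CPM in the mutant duodenum, against 1.3, 2.67, 2.58 and 1.48 CPM in the control duodenum (log2 fold change -0.99 ± 0.37 (SE), adjusted p = 0.107), again with overlapping groups.

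Cd3d and Cd3e lie close together on chromosome 9, and their promoters are shown because both genes were lower in the mutant ileum and because the effect on both differed between the tissues. RefSeq windows from 250 bases before to 50 after the start were at hand for 24 of the 39 genes (GRCm38.p6, an earlier build than the mm39 of the counts). Capitals mark matches on either strand to AGGAAG (ETS), CACCTG (E-box) or TGTGGT (RUNX), motifs of factor families at work in T cells. The windows are chr9:44981536-44981835 on the plus strand for Cd3d and chr9:45009562-45009861 on the minus strand for Cd3e, each written 5′ to 3′.
Cd3d: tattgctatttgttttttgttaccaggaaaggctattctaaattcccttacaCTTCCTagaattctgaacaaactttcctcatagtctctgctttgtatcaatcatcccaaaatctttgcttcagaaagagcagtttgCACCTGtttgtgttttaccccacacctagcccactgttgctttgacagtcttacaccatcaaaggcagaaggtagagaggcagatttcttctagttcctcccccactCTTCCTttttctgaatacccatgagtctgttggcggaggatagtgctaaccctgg
Cd3e: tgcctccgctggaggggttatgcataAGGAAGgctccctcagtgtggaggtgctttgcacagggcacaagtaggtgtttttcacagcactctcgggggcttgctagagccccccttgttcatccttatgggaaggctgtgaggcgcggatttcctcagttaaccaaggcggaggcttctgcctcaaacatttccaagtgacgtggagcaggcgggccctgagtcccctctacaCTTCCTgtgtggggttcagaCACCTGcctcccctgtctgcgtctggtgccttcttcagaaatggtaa
Both windows hold 2 ETS letters and 1 E-box. Of the 29 windows of the 24 genes, 65.5% hold the ETS letters, 51.7% the E-box and 41.4% the RUNX letters, against 35.4%, 20.2% and 16.8% of all 32851 windows. A match is a description of the letters and not a binding site.

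The other general T cell genes were lower in the mutant ileum as well. Cd2, an adhesion receptor, had 0.394, 0.266, 0.558 and 0.375 CPM in the mutant ileum, against 0.98, 4.39, 1.16 and 5.89 CPM in the control ileum (log2 fold change -2.94 ± 0.63 (SE), adjusted p = 0.00764). The high control values were those of C134 and C154, and without them the log2 fold change was -1.37. The call was lost without M167 and M177 (adjusted p = 0.0988). In the duodenum Cd2 had 0.697, 0.755, 0.606 and 0.443 CPM in the mutant duodenum, against 1.04, 2.05, 1.34 and 2.27 CPM in the control duodenum, with no overlap (log2 fold change -1.40 ± 0.30 (SE), adjusted p = 0.0231). Cd5, which dampens receptor signals, had 0.131, 0.266, 0.418 and 0.554 CPM in the mutant ileum, against 2.06, 2.8, 1.27 and 2.57 CPM in the control ileum (log2 fold change -2.65 ± 0.41 (SE), adjusted p = 0.00079). In the duodenum Cd5 had 1.41, 0.921, 1.36 and 0.693 CPM in the mutant duodenum, against 1.28, 1.64, 3.97 and 1.98 CPM in the control duodenum (log2 fold change -0.99 ± 0.37 (SE), adjusted p = 0.111), where the groups overlapped. Cd6, a relative of Cd5, had 0.608, 0.392, 0.959 and 0.268 CPM in the mutant ileum, against 4.65, 5.28, 3.15 and 3.96 CPM in the control ileum (log2 fold change -2.91 ± 0.35 (SE), adjusted p = 0.0002). Its values in the duodenum were 3.2, 2.03, 3.01 and 1.88 CPM in the mutant duodenum, against 2.74, 4.16, 7.01 and 2.86 CPM in the control duodenum (log2 fold change -0.71 ± 0.32 (SE), adjusted p = 0.165), with overlap.

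Cd7, found on T cells and natural killer cells and abundant on intraepithelial lymphocytes, had 1.36, 1.08, 2.53 and 0.804 CPM in the mutant ileum, against 5.57, 5.87, 2.91 and 5.62 CPM in the control ileum (log2 fold change -1.76 ± 0.36 (SE), adjusted p = 0.00427). In the duodenum Cd7 had 12.6, 9.35, 18.5 and 6.76 CPM in the mutant duodenum, against 16.1, 23.7, 36.3 and 24.8 CPM in the control duodenum (log2 fold change -1.08 ± 0.34 (SE), adjusted p = 0.0839), and mutant M168 reached into the control range. Cd28, the costimulatory receptor of naive and CD4+ T cells, had 1.91, 2.66, 4.78 and 3.16 CPM in the mutant ileum, against 5.52, 11.2, 7.98 and 10.6 CPM in the control ileum (log2 fold change -1.47 ± 0.30 (SE), adjusted p = 0.00516), a call lost without M167 and M177 (adjusted p = 0.0697). In the duodenum Cd28 had 5.21, 5.81, 6.7 and 5.01 CPM in the mutant duodenum, against 5.01, 5.75, 7.03 and 10.1 CPM in the control duodenum, and the groups lay over each other (-0.28, 95% interval -0.75 to 0.20, adjusted p = 0.411). Thy1, which in mice is also made by neurons and fibroblasts, had 3.88, 4.3, 5.72 and 4.89 CPM in the mutant ileum, against 8.52, 10.6, 7.9 and 10.8 CPM in the control ileum, the smallest change among the called genes of the ileum (log2 fold change -0.98 ± 0.17 (SE), adjusted p = 0.00129). In the duodenum Thy1 had 5.63, 5.12, 7.18 and 3.44 CPM in the mutant duodenum, against 8.78, 11.4, 10.7 and 7.43 CPM in the control duodenum, with no overlap (log2 fold change -0.82 ± 0.22 (SE), adjusted p = 0.0439).

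**Figure D2:**
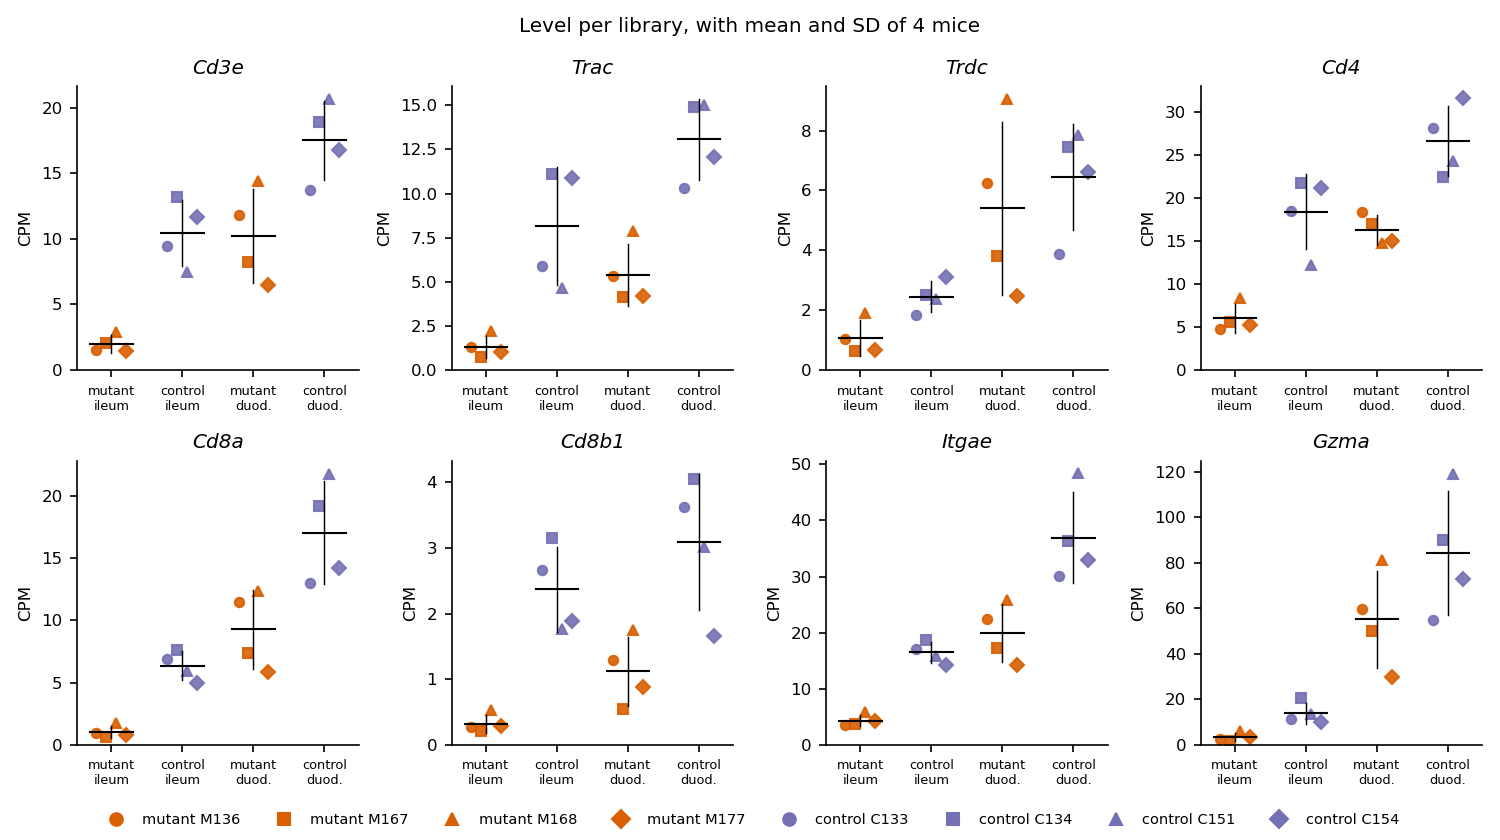
CPM of 8 genes in each library, by tissue and genotype, with the mean and SD of 4 mice and 1 marker shape per mouse within a genotype. In the ileum the mutant and control points are apart for 7 of the 8, while those of Trdc overlap.

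Of the receptor chains, Trac and Trbc2 were lower in both tissues, and the delta constant region passed the test in the ileum and missed it in the duodenum. Trac, the alpha chain constant region, had 1.28, 0.728, 2.2 and 1.04 CPM in the mutant ileum, against 5.91, 11.1, 4.67 and 10.9 CPM in the control ileum (log2 fold change -2.62 ± 0.41 (SE), adjusted p = 0.00134). In the duodenum Trac had 5.31, 4.15, 7.87 and 4.18 CPM in the mutant duodenum, against 10.3, 14.9, 15 and 12.1 CPM in the control duodenum (log2 fold change -1.27 ± 0.22 (SE), adjusted p = 0.00875). Neither tissue showed overlap, and Trac had the smallest adjusted p of the 38 genes in the duodenum. Trbc2, a beta chain constant region, had 0.674, 0.35, 0.75 and 0.572 CPM in the mutant ileum, against 1.86, 5.47, 1.54 and 5.12 CPM in the control ileum (log2 fold change -2.56 ± 0.47 (SE), adjusted p = 0.00274), and in the duodenum 3.02, 2.31, 3.24 and 2.22 CPM in the mutant duodenum, against 3.69, 6.64, 9.13 and 4.15 CPM in the control duodenum (log2 fold change -1.11 ± 0.28 (SE), adjusted p = 0.0389). Its near-identical copy Trbc1 may share reads with it, so that the level of each is uncertain. Trbc1 averaged 0.34 ± 0.18 CPM in the mutant ileum and 1.68 ± 0.87 CPM in the control ileum (SD, n = 4 each). It was lower there by edgeR's test, with overlapping groups (log2 fold change -2.28 ± 0.49 (SE), adjusted p = 0.00555), and the call was lost without C134 and C154 or without M167 and M177 (adjusted p up to 0.0604). In the duodenum Trbc1 was not called (-1.05 ± 0.47 (SE), adjusted p = 0.169), and the groups overlapped. Trdc, the delta chain constant region, had 1.02, 0.644, 1.92 and 0.661 CPM in the mutant ileum, against 1.83, 2.5, 2.37 and 3.11 CPM in the control ileum. One mutant value, 1.92 CPM in M168, lay above the lowest control value (log2 fold change -1.18 ± 0.35 (SE), adjusted p = 0.0234). That call was lost without C154, M136 or M177, with adjusted p-values up to 0.138 over all alternatives. In the duodenum Trdc had 6.25, 3.82, 9.06 and 2.47 CPM in the mutant duodenum, against 3.89, 7.45, 7.85 and 6.6 CPM in the control duodenum, and the highest value of the 8 was that of mutant M168 (-0.24, 95% interval -1.11 to 0.63, adjusted p = 0.713). Without M167 and M177 its duodenal log2 fold change was 0.25. The difference between the tissues missed the threshold for Trdc (-0.96 ± 0.55 (SE), adjusted p = 0.253), and passed it in the paired fit with the mouse as a block.

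The gamma chain constant regions Trgc1, Trgc2 and Trgc4, named here after their values were seen, are the partners of the delta chain and resemble each other, so their single levels are uncertain. Trgc2 averaged 0.42 ± 0.27 CPM in the mutant ileum and 2.3 ± 0.77 CPM in the control ileum (SD, n = 4 each; log2 fold change -2.40 ± 0.46 (SE), adjusted p = 0.00304). Trgc4 averaged 0.38 ± 0.22 CPM in the mutant ileum and 1.54 ± 0.48 CPM in the control ileum (log2 fold change -1.97 ± 0.40 (SE), adjusted p = 0.00346). Trgc1 averaged 0.74 ± 0.43 CPM in the mutant ileum and 1.66 ± 0.65 CPM in the control ileum and missed the threshold (log2 fold change -1.13 ± 0.42 (SE), adjusted p = 0.0623). None of the 3 was called in the duodenum, where the log2 fold changes were -0.54 for Trgc1, -0.91 for Trgc2 and -0.90 for Trgc4 and adjusted p-values 0.212, 0.138 and 0.109.

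Of the genes that signal below the receptor, Lck, Zap70 and Lat were all lower in the mutant ileum. Lck, the kinase that phosphorylates the CD3 chains, had 1.41, 1.27, 1.64 and 1.32 CPM in the mutant ileum, against 4.9, 9.88, 4.18 and 9.66 CPM in the control ileum (log2 fold change -2.31 ± 0.30 (SE), adjusted p = 0.000308). In the duodenum Lck had 5.45, 4.27, 7.91 and 3.77 CPM in the mutant duodenum, against 6.81, 13, 12.6 and 10.1 CPM in the control duodenum, and the groups overlapped by the value of M168 although the gene was called (log2 fold change -0.98 ± 0.26 (SE), adjusted p = 0.0481). Zap70, the kinase that binds the phosphorylated chains, had 0.345, 0.686, 0.75 and 0.429 CPM in the mutant ileum, against 1.42, 3.68, 1.6 and 2.34 CPM in the control ileum (log2 fold change -1.995 ± 0.37 (SE), adjusted p = 0.00226). In the duodenum Zap70 had 1.89, 2.27, 2.13 and 0.97 CPM in the mutant duodenum, against 2.12, 4.47, 4.01 and 3.3 CPM in the control duodenum and missed the threshold (log2 fold change -0.92 ± 0.30 (SE), adjusted p = 0.0772). Lat, the adaptor that Zap70 phosphorylates, had 0.263, 0.364, 0.628 and 0.339 CPM in the mutant ileum, against 2.03, 3.03, 1.44 and 2.78 CPM in the control ileum (log2 fold change -2.51 ± 0.34 (SE), adjusted p = 0.00035). In the duodenum Lat had 1.83, 1.25, 2.48 and 0.859 CPM in the mutant duodenum, against 2.81, 5.02, 4.51 and 2.86 CPM in the control duodenum, with no overlap (log2 fold change -1.22 ± 0.33 (SE), adjusted p = 0.044).

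Cd4 was lower in both tissues. Cd4, the coreceptor of helper and regulatory T cells, had 4.73, 5.59, 8.38 and 5.22 CPM in the mutant ileum, against 18.5, 21.7, 12.2 and 21.1 CPM in the control ileum (log2 fold change -1.59 ± 0.23 (SE), adjusted p = 0.000589). In the duodenum Cd4 had 18.3, 17, 14.7 and 15 CPM in the mutant duodenum, against 28.1, 22.4, 24.3 and 31.6 CPM in the control duodenum (log2 fold change -0.70 ± 0.13 (SE), adjusted p = 0.0139). The groups did not overlap in either tissue. Some resident macrophages of the mouse gut also carry CD4, and macrophage and dendritic cell genes moved with it: 11 of 13 were lower and 1 higher in the mutant ileum, and 9 of 13 were lower in the mutant duodenum. Over all tested genes, 14.6% were lower in the ileum and 5.11% in the duodenum. The summed level of the macrophage and dendritic cell genes was 164 to 208 CPM in the mutant ileum and 239 to 300 CPM in the control ileum, and 268 to 328 CPM in the mutant duodenum and 400 to 478 CPM in the control duodenum. Their part in the Cd4 difference was not tested.

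The helper and regulatory genes were low throughout. Icos, a costimulatory receptor of activated and follicular helper cells, had 0.427, 0.602, 0.662 and 0.554 CPM in the mutant ileum, against 1.04, 2.5, 1.1 and 2.82 CPM in the control ileum (log2 fold change -1.70 ± 0.37 (SE), adjusted p = 0.00546). The Icos call was lost without control mice C134 and C154 (adjusted p = 0.0777). In the duodenum Icos had 0.478, 0.637, 1.06 and 0.332 CPM in the mutant duodenum, against 1.02, 0.842, 0.735 and 1.42 CPM in the control duodenum, with overlap (-0.65, 95% interval -1.45 to 0.15, adjusted p = 0.255). Ctla4, an inhibitory receptor of regulatory T cells, had 0.214, 0.336, 0.471 and 0.304 CPM in the mutant ileum, against 0.6, 0.877, 0.741 and 1.2 CPM in the control ileum (log2 fold change -1.33 ± 0.34 (SE), adjusted p = 0.0123). This result too was lost without C134 and C154 or without M167 and M177, with adjusted p-values up to 0.128. In the duodenum Ctla4 had 0.318, 0.59, 0.251 and 0.609 CPM in the mutant duodenum, against 0.321, 0.461, 0.588 and 0.533 CPM in the control duodenum, and the groups lay over each other (-0.11, 95% interval -0.90 to 0.69, adjusted p = 0.871). Gata3, the factor of type 2 helper cells and innate lymphoid cells, had 0.51, 0.826, 0.854 and 0.697 CPM in the mutant ileum, against 2.17, 2.4, 1.35 and 2.49 CPM in the control ileum (log2 fold change -1.51 ± 0.27 (SE), adjusted p = 0.00176). Its duodenal values were 0.876, 1.01, 0.877 and 0.997 CPM in the mutant duodenum, against 1.02, 1.11, 1.24 and 1.74 CPM in the control duodenum, without overlap but short of the threshold (log2 fold change -0.43 ± 0.23 (SE), adjusted p = 0.247). Foxp3, the factor of regulatory T cells, had 0.279, 0.336, 0.349 and 0.393 CPM in the mutant ileum, against 0.424, 0.782, 0.456 and 0.85 CPM in the control ileum. All mutant ileum values lay below all control ileum values, but the adjusted p was above the threshold (-0.85, 95% interval -1.59 to -0.12, adjusted p = 0.0714). In the duodenum Foxp3 had 0.0597, 0.165, 0.334 and 0.305 CPM in the mutant duodenum, against 0.321, 0.62, 0.21 and 0.889 CPM in the control duodenum, at 37 counts over the mutant libraries and 110 over the control libraries (-1.25, 95% interval -2.47 to -0.02, adjusted p = 0.166).

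Both CD8 chains were lower in the mutant ileum. Cd8a is found both in alpha alpha homodimers, typical of many intraepithelial lymphocytes, and in alpha beta heterodimers, while Cd8b1 marks the heterodimer of conventional CD8+ T cells. Cd8a had 0.937, 0.602, 1.71 and 0.804 CPM in the mutant ileum, against 6.89, 7.65, 5.96 and 4.96 CPM in the control ileum (log2 fold change -2.62 ± 0.30 (SE), adjusted p = 0.000143). Cd8b1 had 0.263, 0.21, 0.523 and 0.286 CPM in the mutant ileum, against 2.66, 3.15, 1.77 and 1.89 CPM in the control ileum (log2 fold change -2.86 ± 0.33 (SE), adjusted p = 0.000154). Neither gene's groups overlapped in the ileum. In the duodenum Cd8a had 11.5, 7.41, 12.4 and 5.82 CPM in the mutant duodenum, against 13, 19.2, 21.8 and 14.2 CPM in the control duodenum, without overlap but short of the threshold (log2 fold change -0.86 ± 0.26 (SE), adjusted p = 0.068). Cd8b1 had 1.29, 0.543, 1.75 and 0.887 CPM in the mutant duodenum, against 3.63, 4.05, 3.02 and 1.66 CPM in the control duodenum, and was called although C154 lay below M168 (log2 fold change -1.44 ± 0.37 (SE), adjusted p = 0.0383).

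Itgae and Ccr9, which hold lymphocytes in the epithelium and bring them to the small intestine, were both lower in the mutant ileum. Itgae, the CD103 chain that binds E-cadherin and is also made by some dendritic cells, had 3.52, 3.72, 5.79 and 4.18 CPM in the mutant ileum, against 17.1, 18.7, 15.8 and 14.2 CPM in the control ileum. The highest mutant value was 5.79 and the lowest control value 14.2 CPM, and Itgae had the smallest adjusted p of the 39 genes (log2 fold change -1.91 ± 0.17 (SE), adjusted p = 4.32e-05). In the duodenum Itgae had 22.4, 17.2, 25.9 and 14.2 CPM in the mutant duodenum, against 30.1, 36.3, 48.4 and 33 CPM in the control duodenum, again without overlap (log2 fold change -0.88 ± 0.20 (SE), adjusted p = 0.0297). Ccr9, the receptor for the epithelial chemokine CCL25, had 3.57, 2.65, 4.86 and 2.75 CPM in the mutant ileum, against 8.02, 11.3, 7.9 and 10.2 CPM in the control ileum (log2 fold change -1.41 ± 0.21 (SE), adjusted p = 0.000715). In the duodenum Ccr9 had 8.06, 6.82, 10.3 and 4.93 CPM in the mutant duodenum, against 8.11, 11.3, 11 and 8.06 CPM in the control duodenum, with overlap (-0.33, 95% interval -0.81 to 0.14, adjusted p = 0.329).

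Of the cytotoxic effectors and ligands, 7 of 7 were lower in the mutant ileum against 1 of 7, Xcl1, in the mutant duodenum. Their sum was 6.15, 4.26, 12.7 and 5.47 CPM in the mutant ileum, against 31.8, 44.1, 31.5 and 24.8 CPM in the control ileum. Gzma, granzyme A, had 2.37, 1.82, 5.91 and 3.18 CPM in the mutant ileum, against 11.3, 20.4, 13.4 and 9.87 CPM in the control ileum (log2 fold change -2.02 ± 0.39 (SE), adjusted p = 0.00468). In the duodenum Gzma had 59.7, 50, 81.3 and 29.8 CPM in the mutant duodenum, against 54.8, 90.1, 119 and 72.8 CPM in the control duodenum, with overlap (-0.59, 95% interval -1.36 to 0.18, adjusted p = 0.275). Gzmb, granzyme B, had 0.97, 0.686, 1.92 and 0.661 CPM in the mutant ileum, against 3.2, 5.19, 5.58 and 4.85 CPM in the control ileum (log2 fold change -2.12 ± 0.34 (SE), adjusted p = 0.0011). In the duodenum Gzmb had 16.2, 12, 19.5 and 5.9 CPM in the mutant duodenum, against 16.9, 24.3, 42.4 and 22.8 CPM in the control duodenum, and M168 lay above C133 (-0.97, 95% interval -1.93 to -0.02, adjusted p = 0.164). Prf1, the pore protein that lets granzymes into target cells, had 0.378, 0.322, 0.349 and 0.25 CPM in the mutant ileum, against 0.819, 1.77, 0.855 and 1.2 CPM in the control ileum (log2 fold change -1.80 ± 0.33 (SE), adjusted p = 0.00194). Its values in the duodenum were 1.57, 1.32, 1.82 and 1.02 CPM in the mutant duodenum, against 1.74, 2.22, 3.15 and 1.58 CPM in the control duodenum, with overlap (-0.58, 95% interval -1.17 to 0.01, adjusted p = 0.179). Nkg7, a granule protein, had 0.378, 0.392, 1.06 and 0.304 CPM in the mutant ileum, against 3.16, 2.69, 2.01 and 2.26 CPM in the control ileum (log2 fold change -2.21 ± 0.38 (SE), adjusted p = 0.00133). In the duodenum Nkg7 had 4.42, 3.3, 5.72 and 2.35 CPM in the mutant duodenum, against 5.85, 8.42, 8.9 and 6.3 CPM in the control duodenum, without overlap but short of the threshold (-0.88, 95% interval -1.45 to -0.31, adjusted p = 0.058).

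The secreted and surface ligands followed. Ccl5, a chemokine stored by cytotoxic T cells, had 1.76, 0.868, 3.09 and 0.75 CPM in the mutant ileum, against 12.3, 12.7, 7.69 and 5.49 CPM in the control ileum (log2 fold change -2.53 ± 0.49 (SE), adjusted p = 0.00504). In the duodenum Ccl5 had 23.2, 11, 27.6 and 9.17 CPM in the mutant duodenum, against 25.6, 42.4, 61.5 and 23.6 CPM in the control duodenum, and the groups overlapped (-1.09, 95% interval -2.20 to 0.01, adjusted p = 0.173). Fasl, the death receptor ligand, had 0.197, 0.098, 0.261 and 0.232 CPM in the mutant ileum, against 0.702, 0.82, 1.67 and 0.871 CPM in the control ileum (log2 fold change -2.33 ± 0.40 (SE), adjusted p = 0.00134). In the duodenum Fasl had 1.99, 1.06, 1.21 and 0.582 CPM in the mutant duodenum, against 1.18, 2, 2.43 and 1.17 CPM in the control duodenum, with wide overlap (-0.46, 95% interval -1.28 to 0.36, adjusted p = 0.436). Xcl1, the chemokine that attracts cross-presenting dendritic cells, had 0.0986, 0.07, 0.0697 and 0.0893 CPM in the mutant ileum, against 0.395, 0.534, 0.228 and 0.27 CPM in the control ileum, at 20 counts over the mutant libraries and 80 over the control libraries (log2 fold change -2.07 ± 0.43 (SE), adjusted p = 0.00414). In the duodenum Xcl1 had 0.637, 0.212, 0.752 and 0.166 CPM in the mutant duodenum, against 1.24, 2.03, 1.15 and 1.11 CPM in the control duodenum, without overlap, and this was the largest fall among the 12 genes called there (log2 fold change -1.60 ± 0.44 (SE), adjusted p = 0.0486).

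The promoters of Gzmb and Prf1 are shown because their products act together and both genes were lower in the mutant ileum. The windows are chr14:56262285-56262584 on the minus strand for Gzmb and chr10:61297586-61297885 on the plus strand for Prf1 (RefSeq, GRCm38.p6), with capitals as for the CD3 genes.
Gzmb: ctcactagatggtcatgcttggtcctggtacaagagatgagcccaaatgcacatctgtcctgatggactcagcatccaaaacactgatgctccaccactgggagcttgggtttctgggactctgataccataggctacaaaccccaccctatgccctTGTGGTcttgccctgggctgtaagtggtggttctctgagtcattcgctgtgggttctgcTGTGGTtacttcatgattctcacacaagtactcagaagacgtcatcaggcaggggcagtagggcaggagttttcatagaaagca
Prf1: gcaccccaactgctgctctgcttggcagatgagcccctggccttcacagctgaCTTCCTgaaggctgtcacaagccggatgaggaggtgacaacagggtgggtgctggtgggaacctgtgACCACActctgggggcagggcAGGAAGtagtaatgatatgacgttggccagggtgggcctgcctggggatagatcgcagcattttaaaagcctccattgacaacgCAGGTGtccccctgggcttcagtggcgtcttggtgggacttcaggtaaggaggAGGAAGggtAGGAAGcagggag
The Gzmb window holds 2 RUNX matches and no other, and the Prf1 window 1 RUNX, 4 ETS and 1 E-box match.

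Among receptors and factors of cytotoxic cells, 5 of 7 were lower in the mutant ileum and Tbx21 alone passed the test in the duodenum. Tbx21, the T-bet factor, had 0.263, 0.14, 0.383 and 0.143 CPM in the mutant ileum, against 1.13, 1.22, 0.836 and 0.912 CPM in the control ileum (log2 fold change -2.11 ± 0.36 (SE), adjusted p = 0.00137). In the duodenum Tbx21 had 0.796, 0.897, 0.981 and 0.443 CPM in the mutant duodenum, against 2.12, 2.08, 2.04 and 1.56 CPM in the control duodenum, without overlap (log2 fold change -1.30 ± 0.26 (SE), adjusted p = 0.0173). Eomes, a related factor, had 39 counts over the mutant ileum libraries and 61 over the control ileum libraries and was not called (-0.82, 95% interval -2.17 to 0.54, adjusted p = 0.329). In the ileum its values were 0.0986, 0.364, 0.0697 and 0.0536 CPM in the mutant ileum, against 0.234, 0.439, 0.285 and 0.145 CPM in the control ileum, with the highest mutant value in M167. In the duodenum Eomes had 21 counts over the mutant libraries and 60 over the control libraries. Klrd1, the CD94 receptor chain, had 0.148, 0.112, 0.244 and 0.214 CPM in the mutant ileum, against 0.615, 0.839, 0.874 and 0.518 CPM in the control ileum (log2 fold change -1.96 ± 0.35 (SE), adjusted p = 0.00182). In the duodenum Klrd1 had 1.51, 0.85, 1.52 and 0.997 CPM in the mutant duodenum, against 1.28, 2.73, 3.15 and 1.76 CPM in the control duodenum and overlapped (-0.85, 95% interval -1.55 to -0.15, adjusted p = 0.109). Klrk1, the NKG2D receptor, had 0.148, 0.798, 0.662 and 0.411 CPM in the mutant ileum, against 0.702, 0.858, 0.684 and 1.6 CPM in the control ileum, with overlap and no call (-0.88, 95% interval -1.93 to 0.16, adjusted p = 0.175). In the duodenum Klrk1 had 0.856, 0.378, 0.731 and 0.609 CPM in the mutant duodenum, against 0.321, 0.906, 0.609 and 0.533 CPM in the control duodenum, and it was the 1 gene of 38 with a log2 fold change above 0 (0.13, 95% interval -0.66 to 0.92, adjusted p = 0.839).

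Cd160, a receptor found on intraepithelial lymphocytes, had 0.477, 0.434, 0.645 and 0.411 CPM in the mutant ileum, against 2.08, 2.08, 1.67 and 1.26 CPM in the control ileum (log2 fold change -1.82 ± 0.26 (SE), adjusted p = 0.000466). In the duodenum Cd160 had 2.75, 1.77, 2.86 and 0.97 CPM in the mutant duodenum, against 2.26, 4.02, 4.34 and 2.88 CPM in the control duodenum, with overlap (-0.67, 95% interval -1.41 to 0.06, adjusted p = 0.205). Cd96, a nectin family receptor of T and natural killer cells, had 0.838, 0.714, 1.03 and 0.554 CPM in the mutant ileum, against 3.95, 4.4, 2.6 and 4.04 CPM in the control ileum (log2 fold change -2.23 ± 0.25 (SE), adjusted p = 0.000135). In the duodenum Cd96 had 5.47, 3.92, 5.7 and 2.88 CPM in the mutant duodenum, against 4.89, 8.12, 7.49 and 6.08 CPM in the control duodenum, with overlap (-0.55, 95% interval -1.07 to -0.03, adjusted p = 0.155). Il2rb, the beta chain shared by the interleukin 2 and 15 receptors, had 1.89, 1.81, 3.33 and 2.05 CPM in the mutant ileum, against 2.49, 9.06, 6.23 and 12.1 CPM in the control ileum. Control mouse C133 lay inside the mutant range (log2 fold change -1.69 ± 0.45 (SE), adjusted p = 0.0209). That call was lost without M136, M167 or M177 and without the low count filter, with adjusted p-values up to 0.173. In the duodenum Il2rb had 8.94, 7.67, 10.5 and 6.29 CPM in the mutant duodenum, against 5.19, 14, 16.4 and 17.8 CPM in the control duodenum, where C133 was the lowest of all 8 libraries (-0.66, 95% interval -1.46 to 0.14, adjusted p = 0.245).

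The difference between the tissues was tested directly, as the genotype effect in the ileum minus that in the duodenum. It passed for 10 of the 39 genes, all more negative in the ileum, against 4.13% of all tested genes. The median over the 39 was -1.20, against -0.06 for all tested genes, and 37 of 39 were below 0. The log2 differences were -2.21 ± 0.50 for Cd6, -2.04 ± 0.62 for Cd3d, -1.89 ± 0.56 for Fasl, -1.78 ± 0.42 for Cd8a and -1.69 ± 0.35 for Cd96 (SE; edgeR, adjusted p = 0.0183, 0.0488, 0.046, 0.0213 and 0.0133). They were -1.62 ± 0.37 for Cd3e, -1.58 ± 0.48 for Cd3g, -1.09 ± 0.32 for Ccr9, -1.05 ± 0.27 for Itgae and -0.91 ± 0.26 for Cd4 (SE; adjusted p = 0.0194, 0.0499, 0.0438, 0.0299 and 0.043). The same mice gave both tissues, and with the mouse number as a block in a paired fit 26 of the 39 passed, including these 10, against 10.0% of all tested genes. Trac, Trdc, Lck, Gzma, Gzmb and Cd8b1 were among the 16 added. Without the block, the count was 0 without C133, 1 without C134, 4 without C151, 2 without C154, 1 without M136 and 5 without M167. Over all tested genes, 796 passed in this direction with all mice, and 131, 297, 85, 266, 228 and 725 did in these 6 fits, in the same order. The count was 14 of 39 and 997 of 19658 tested genes without M168, and 8 of 39 and 382 of 19642 without M177. Without M167 and M177 it was 6 of 39 and 366 of 20129. It was 0 of 39 and 8 of 20053 tested genes without C134 and C154. In that fit 11 of the 39 were lower at an unadjusted p under 0.05, against 4221 of the 20053 in either direction. At that level 27 of the 39 were lower without C133, against 4898 of 19489 tested genes in either direction. DESeq2 called 18. For Thy1, the interaction log2 difference was -0.17 ± 0.28 (SE, adjusted p = 0.71).

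Ratios between genes were also taken within each library, per kilobase of exon. Those with Cd4 are not ratios of T cell classes alone, since macrophages can carry it too. Trdc over Trac was 0.192, 0.214, 0.211 and 0.154 in the mutant ileum, against 0.0748, 0.0545, 0.123 and 0.069 in the control ileum. It was 0.285, 0.223, 0.278 and 0.143 in the mutant duodenum, against 0.0917, 0.121, 0.126 and 0.131 in the control duodenum. The ratio of the delta to the alpha chain was thus above all control libraries in each mutant library of both tissues. No ratio with a gamma chain gene was taken. In the ileum Trgc2 and Trgc4 had larger falls than Trdc, and Trgc1 had a similar fall that was not called. Cd4 over Cd8a was 4.56, 8.37, 4.43 and 5.85 in the mutant ileum, against 2.42, 2.56, 1.85 and 3.83 in the control ileum. In the duodenum it was 1.43, 2.07, 1.07 and 2.32 in mutant mice, against 1.96, 1.05, 1.01 and 2.01 in control mice, with overlap. Ccr9 over Cd3e was 0.515 to 0.928 in the mutant ileum and 0.336 to 0.421 in the control ileum, and 0.273 to 0.328 in the mutant duodenum and 0.191 to 0.237 in the control duodenum.

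Each of these 5 ratios without overlap had p = 0.0286 in a two-sided exact permutation test over mice, the smallest value that 4 against 4 can give, and an adjusted p of 0.0914 over the 16 ratio comparisons made. No ratio passed after adjustment. Cd8a over Cd8b1 was 1.15 to 1.45 in the mutant ileum and 0.991 to 1.38 in the control ileum (exact permutation p = 0.2). It was 2.68 to 5.57 in the mutant duodenum and 1.46 to 3.48 in the control duodenum (exact permutation p = 0.2). Gzma over Cd3e was 3.61 to 8.91 in the mutant ileum and 3.42 to 7.3 in the control ileum (exact permutation p = 0.486). Cd3e over Ptprc, the pan-leukocyte gene CD45, was 0.273 to 0.521 in the mutant ileum and 0.39 to 0.766 in the control ileum (exact permutation p = 0.143). In the duodenum Cd3e over Ptprc was 0.598 to 1.09 in mutant mice and 0.663 to 0.948 in control mice (exact permutation p = 0.943).

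**Figure D3:**
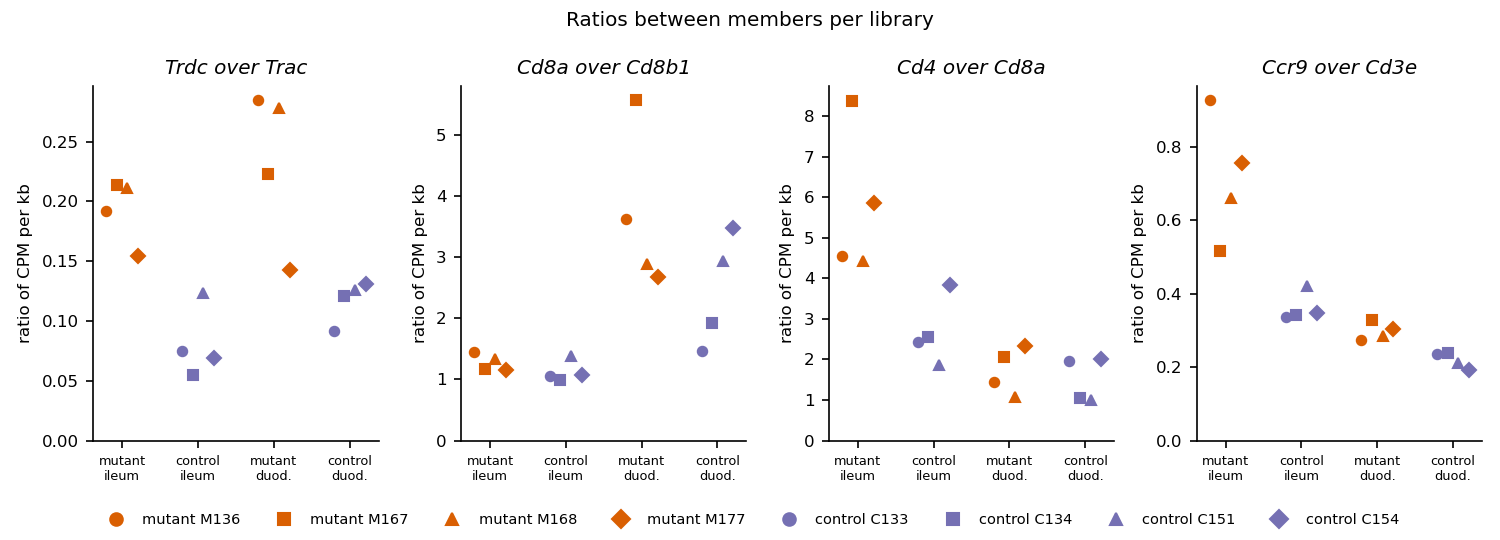
Ratios of 4 gene pairs in CPM per kilobase, 1 point per library, by tissue and genotype. Trdc over Trac and Ccr9 over Cd3e lie above the control points in all mutant libraries of both tissues, Cd4 over Cd8a in those of the ileum, and Cd8a over Cd8b1 overlaps in both tissues.

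The levels of the genes also differed along the small intestine of control mice, whose libraries the genotype comparisons use too. In the ileum 18 of 39 genes were lower than in the duodenum, against 30.3% of all tested genes, and 2 were higher, against 28.0%. The median log2 fold change, ileum over duodenum, was -0.73, against -0.005 for all tested genes. Smooth muscle genes went the other way, with 8 of 8 higher in the control ileum (median log2 fold change 1.49). They summed to 3270 to 4650 CPM there and 1460 to 1890 CPM in the control duodenum. The part of tissue make-up in this comparison was not tested. Of the 7 cytotoxic effectors and ligands, 6 were lower, namely Gzma (log2 fold change -2.60 ± 0.32 (SE), adjusted p = 0.000357), Gzmb, Ccl5, Xcl1, Nkg7 and Prf1. Gzma averaged 13.7 ± 4.67 CPM in the control ileum and 84.0 ± 27.1 CPM in the control duodenum (SD, n = 4 each). Cd7 averaged 4.99 ± 1.4 CPM in the control ileum and 25.2 ± 8.34 CPM in the control duodenum (log2 fold change -2.33 ± 0.30 (SE), adjusted p = 0.00032). Trdc averaged 2.45 ± 0.53 CPM in the control ileum and 6.45 ± 1.78 CPM in the control duodenum (log2 fold change -1.39 ± 0.23 (SE), adjusted p = 0.000486). Without C134 and C154 the calls of Gzma, Gzmb, Ccl5 and Cd7 were lost (adjusted p = 0.0542, 0.1, 0.13 and 0.0989). In that fit 19 of the 39 genes were lower, against 5110 of 18790 tested genes. It kept 14 of the 20 calls made with all control mice, and Cd3d, Trac, Trbc2, Lck and Zap70 were called in it alone of the 2 fits. The call of Prf1 was lost without C133 or C151 (adjusted p up to 0.175). Cd8a was lower in the ileum (log2 fold change -1.41 ± 0.19 (SE), adjusted p = 0.000131), while Cd8b1 was not called (-0.38, 95% interval -0.999 to 0.25, adjusted p = 0.275).

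The 2 genes higher in the control ileum were Ctla4 (log2 fold change 0.85 ± 0.30 (SE), adjusted p = 0.0303) and Gata3 (log2 fold change 0.73 ± 0.25 (SE), adjusted p = 0.0258), and no gene was higher without C134 or without C134 and C154. At an unadjusted p under 0.05, 1 and 0 genes were higher in those fits, against 11041 of 18440 and 11223 of 18790 tested genes in either direction. DESeq2 on all mice called 3, against 5625 higher of all 32063 genes in that fit. Trac missed the threshold (log2 fold change -0.68 ± 0.29 (SE), adjusted p = 0.077) and so did Ccr9 (-0.03, 95% interval -0.38 to 0.33, adjusted p = 0.901). Per kilobase of exon, the highest levels in the control ileum were those of Gzma (13.7 CPM per kb), Ccl5 (9.93 CPM per kb), Trac (8.71 CPM per kb), Trbc2 (5.05 CPM per kb) and Cd4 (4.56 CPM per kb). In the control duodenum they were those of Gzma (83.5 CPM per kb), Ccl5 (39.9 CPM per kb), Cd7 (22.3 CPM per kb), Gzmb (18.5 CPM per kb) and Trac (14.0 CPM per kb). The lowest in both were Eomes and Klrk1.

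**Figure D4:**
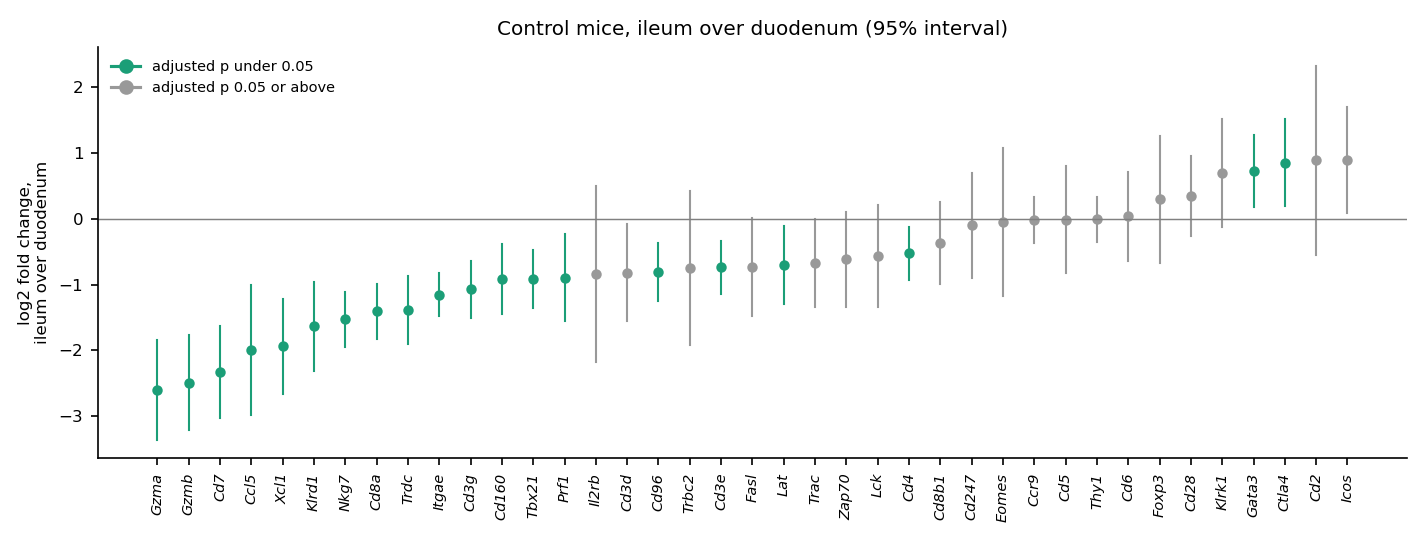
Log2 fold change of each gene in control mice, ileum over duodenum, ordered by size, with 95% intervals from edgeR. The lowest points are Gzma at -2.60 and Gzmb at -2.49, 18 genes are called lower, and Ctla4 and Gata3 are called higher.

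Other genes of these pathways were tested too, where 14.6% of all tested genes were lower in the mutant ileum and 5.11% in the mutant duodenum. Of 24 tested receptor and signalling genes outside the 39, 19 were lower in the mutant ileum, with a median log2 fold change of -1.78. Cd226, a costimulatory receptor, averaged 0.64 ± 0.11 CPM in the mutant ileum and 2.92 ± 0.18 CPM in the control ileum (SD, n = 4 each; log2 fold change -2.16 ± 0.20 (SE), adjusted p = 6.15e-05). Themis, needed for T cell selection in the thymus, averaged 0.59 ± 0.22 CPM in the mutant ileum and 3.48 ± 0.73 CPM in the control ileum (log2 fold change -2.52 ± 0.32 (SE), adjusted p = 0.000233). In the duodenum 4 of 23 were lower, among them Cd101, Lcp2 and Havcr2. Of 25 lineage and homing genes, 21 were lower in the mutant ileum, and 5 were lower and 1 was higher in the mutant duodenum. Itgb7, which pairs with Itgae, was lower in both (log2 fold change -2.02 ± 0.27 and -0.94 ± 0.15 (SE), adjusted p = 0.000451 and 0.00709, in the ileum and the duodenum). Of 10 tested cytotoxic and cytokine genes, 5 were lower and 1, Hopx, was higher in the mutant ileum, while 1 of 11, Cst7, was lower in the mutant duodenum. Hopx averaged 17.5 ± 1.59 CPM in the control ileum (SD, n = 4), the highest level of that list, and which cells made it was not tested. Without C134 and C154 the ileal call of Hopx, whose groups overlapped, and the duodenal calls of Cst7, Havcr2, Lcp2 and Itgb7 were lost. Cst7, Havcr2 and Hopx also lost theirs in fits without 1 mouse, C151 among them. Another 12 genes of that list, including Ifng, Il17a and Il22, were too low to be tested in the ileum.

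Markers of other cells moved in the same libraries. In the mutant ileum 8 of 8 pan-leukocyte genes were lower (median log2 fold change -1.88), 11 of 14 B cell and follicle genes (-3.51), 11 of 13 macrophage and dendritic cell genes (-0.80) and 6 of 8 plasma cell genes (-1.002). Over all tested genes 14.6% were lower there. Of the macrophage and dendritic cell genes 1 was higher, as was 1 plasma cell gene. In the mutant duodenum 7 of 8 pan-leukocyte, 2 of 8 B cell and follicle, 9 of 13 macrophage and dendritic cell and 0 of 8 plasma cell genes were lower, the last with a median log2 fold change of -0.01. The share over all tested genes was 5.11%. Summed B cell and follicle genes were 13.1 to 15.3 CPM in the mutant ileum and 21.9 to 255 CPM in the control ileum, where the 2 highest values were those of C134 and C154. Of 10 epithelial genes, 4 were higher and 0 lower in the mutant ileum, against 19.0% of all tested genes that were higher there. Their sum overlapped, at 12200 to 15400 CPM in the mutant ileum and 11100 to 12700 CPM in the control ileum. Smooth muscle genes summed to 3130 to 4990 CPM in the mutant ileum and 3270 to 4650 CPM in the control ileum. The part of these cell types in the levels of the 39 genes was not tested. Without C134 and C154 the sum of the 10 CD3 and pan-T genes was still 11.3 to 20.4 CPM in the mutant ileum and 37.8 to 43.6 CPM in the control ileum.

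**Figure D5:**
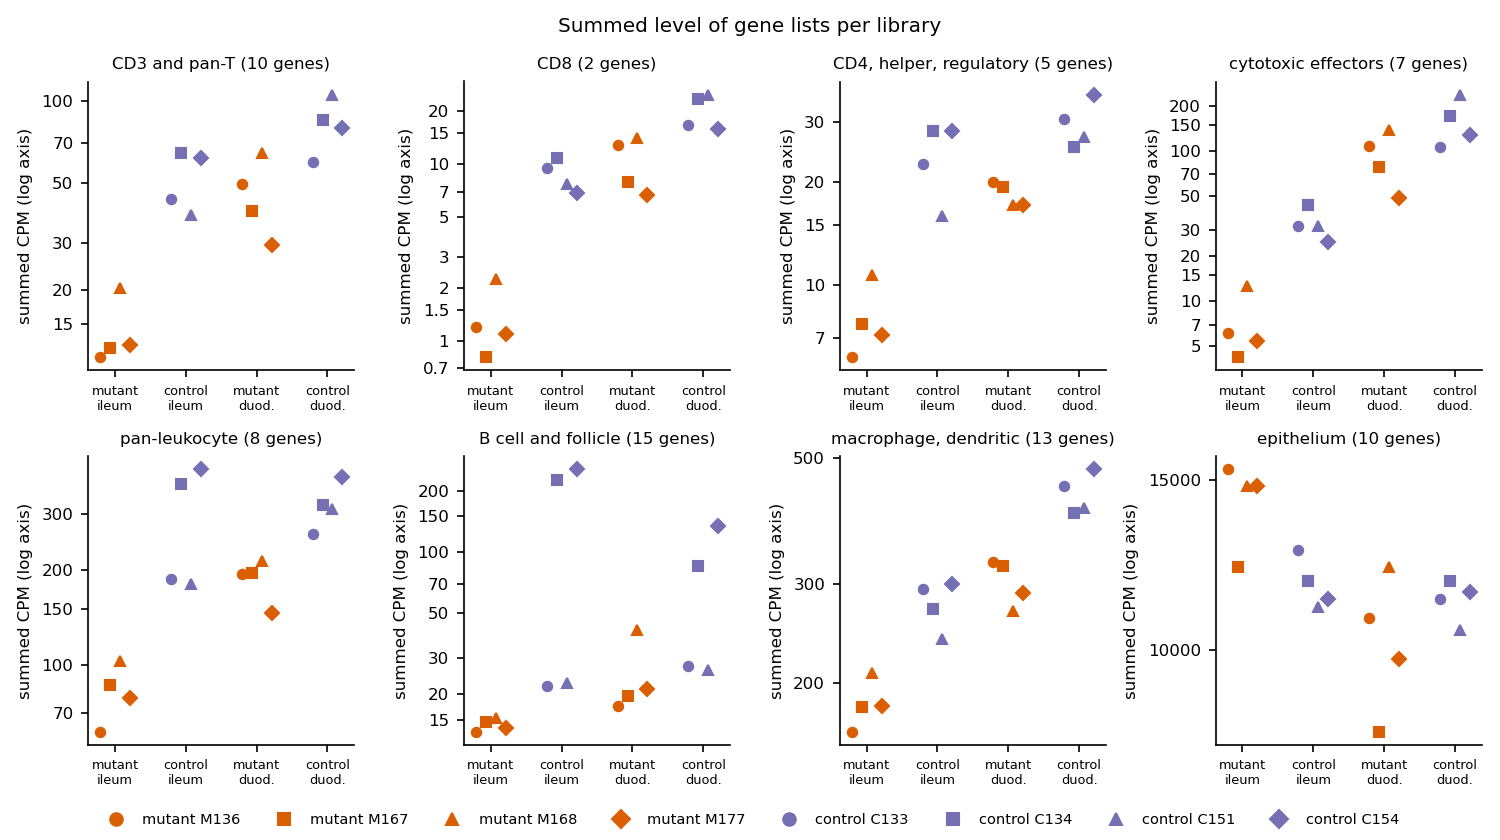
Summed CPM of 8 gene lists in each library on a log axis, by tissue and genotype, with 1 marker shape per mouse within a genotype. In the ileum the mutant points lie below the control points for the 4 T cell lists and for pan-leukocyte, follicle and macrophage genes, and the follicle panel shows control mice C134 and C154 apart from the rest.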

How the data were processed

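Total RNA from 16 libraries, 4 per tissue and genotype, was sequenced with strand information after removal of ribosomal RNA, and libraries held 40.9 to 67.2 M counts. The authors deposited whole, unnormalized counts for 55359 gene identifiers. The submitters' processing notes name the mm39 build and the tools STAR 2.5.3a, HTSeq 0.6.1p1, cutadapt 1.10 and Bowtie2 2.2.8. Strand setting and annotation release were not given in the sources used here. GENCODE M21, on an earlier build, gave names and exon lengths (52083 identifiers named).

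Library sizes for CPM were scaled by TMM (trimmed mean of M values). Genotype was tested within each tissue with edgeR 4.0.16 (limma 3.58.1, R 4.3.3; filterByExpr, robust quasi-likelihood F test), the tissue difference over all 16 libraries, and ileum over duodenum over the 8 control libraries. P-values were adjusted by Benjamini-Hochberg over all tested genes, with a threshold of 0.05. Alternatives were DESeq2 size factors, the DESeq2 1.42.0 test, no low count filter, 1 CPM in 4 libraries, all libraries in 1 fit, mice left out, and the mouse as a block. The fits were checked on simulated counts.

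The 39 genes and all lists were chosen with earlier results of these data known. Library values are given for genes that passed a test, the main lineage genes and the 2 highest of each list, and of other lists up to 4 genes with the smallest p. Foxp3, Klrk1 and Eomes, which passed no main test, were given library values as well. Title numbers, read as mouse numbers, pair the tissues: residuals of the 8 mice correlated between duodenum and ileum with r of 0.221 to 0.481, best with the own number in 7 of 8. Some genes counted in the lists are not reported here by name.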

Additional observations from a re-analysis of the deposited data

Results flagged for a closer look

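The genotype effect differed between the tissues for 10 genes, and in each it was more negative in the ileum (edgeR's quasi-likelihood test, adjusted p under 0.05). As log2 differences, ileum effect minus duodenum effect, they were -2.21 for Cd6, -2.04 for Cd3d, -1.89 for Fasl, -1.78 for Cd8a, -1.69 for Cd96, -1.62 for Cd3e, -1.58 for Cd3g, -1.09 for Ccr9, -1.05 for Itgae and -0.91 for Cd4. The count moved to 26 with the mouse as a block and to 0 without control mice C134 and C154.

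In 7 of 156 groups of 4 libraries, 1 library stood far from the other 3, where chance gives about 5% of such groups. In the mutant ileum, mouse M168 was high for Cd3g (1.85 CPM, others 0.644 to 0.679 CPM), for Nkg7 (1.06 CPM, others 0.304 to 0.392 CPM) and for Il2rb (3.33 CPM, others 1.81 to 2.05 CPM). M168 was the highest of the 4 mutant ileum libraries for 32 of the 39 genes. Mouse M167 was high for Eomes in the mutant ileum (0.364 CPM, others 0.0536 to 0.0986 CPM). Among control mice, C151 was low for Cd7 in the ileum (2.91 CPM, others 5.57 to 5.87 CPM). In the control duodenum, C134 was high for Xcl1 (2.03 CPM, others 1.11 to 1.24 CPM) and C154 low for Tbx21 (1.56 CPM, others 2.04 to 2.12 CPM).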

How the results depend on the processing

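In the ileum, the count of lower genes (36 of 39) was 31 to 36 over all alternatives, and 31 of 31 tested with a filter of 1 CPM in 4 libraries. In the duodenum (12 of 38) it was 20 by the DESeq2 test, 2 to 18 with 1 mouse left out, and 0 without C134 and C154 or without M167 and M177. The genotype by tissue count (10) was 18 by DESeq2, 26 with the mouse as replicate block in a paired fit, 0 to 14 with 1 mouse left out, 0 without C134 and C154 and 6 without M167 and M177. The count higher in the control ileum (2) was 0 to 2 with 1 mouse left out, 0 without C134 and C154, and 3 with the replicate block, which had 23 lower in place of 18. Over all 18217 tested genes the fit with the block had 5423 higher and 5832 lower. The cause of these moves was not tested.

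Of single genes, 12 values of the genotype effects and of their difference between tissues changed sign, and none of the 12 had passed a test. Values of ileum over duodenum in control mice are not in this count. Some of them changed sign too, such as Cd2, at 0.89 with all mice and down to -0.13 over the alternatives. In the duodenum these were Trdc at 0.253 without M167 and M177; Ctla4 at 0.009 without C151, 0.025 without M136 and 0.096 without M168; and Klrk1 at -0.074 without C133 and -0.044 without M136. In the genotype by tissue fit they were Thy1 at 0.005 without C154 and 0.038 without C134 and C154; Foxp3 at -0.08 without C134 and C154; and Eomes at -0.008 without C154, -0.83 without M167 and -0.77 without M167 and M177. With 1 mouse left out, these values ranged from -0.347 to 0.005 for Thy1 and -0.83 to 0.872 for Eomes between tissues, and from -0.292 to 0.096 for Ctla4 and -0.074 to 0.422 for Klrk1 in the duodenum. Low counts limit Eomes, Foxp3, Klrk1, Xcl1 and Ctla4, which stay under 2.1 CPM in each library. Other genes had low counts in the mutant ileum too, such as Cd3d, Klrd1, Fasl and Tbx21, with sums of 44, 43, 47 and 56 counts over its libraries.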
